A study of Mus musculus with 6 samples.

Results

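The trefoil factor genes Tff1, Tff2 and Tff3, the gastrokine genes Gkn1 and Gkn2, and the genes Ctse, Anxa10, Capn8, Capn9 and Muc1 encode secreted and intracellular products of gastric mucous cells. These 10 genes, of 12393 that the arrays read by a probe set of 1 symbol, were followed at every probe set whose platform symbol is one of theirs. That gave 14 of the 22626 probe sets that are not array controls, and 0 more carried a member's symbol beside another. All 14 passed a filter on dim probe sets, so that no member went untested. RNA of the stomach antrum was measured on 6 Affymetrix expression arrays from mice of 3 strains, with 2 arrays each for Satin, Beige and BL6 (C57/BL6). Satin mice carry a mutation in Foxq1, a forkhead transcription factor gene. Beige mice carry a mutation in the lysosomal trafficking gene Lyst, BL6 is an inbred strain, and the Beige and BL6 arrays are titled as controls. The sources used here do not give the background of the mutant strains, the age and sex of the mice, or whether Satin mice also carried the Lyst mutation. The design text speaks of 2 mice per strain, but no label ties an array to an animal. The p-values therefore reflect how far these arrays lie apart, which may be technical.

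Surface mucous (pit) cells line the stomach and secrete the gel-forming mucin Muc5ac together with trefoil factor 1 and the gastrokines. Trefoil factors are small, protease-resistant peptides held together by disulphide bonds that take part in epithelial repair. Gastrokines are stomach proteins with a BRICHOS domain, and human GKN2 forms a disulphide-linked dimer with TFF1. Trefoil factor 2 is made by mucous neck and antral gland cells, and trefoil factor 3 by intestinal goblet cells. In the RefSeq annotation of GRCm38.p6, Tff3, Tff2 and Tff1 lie next to each other on chromosome 17, and Gkn1, Gkn2 and Gkn3 next to each other on chromosome 6. Capn8 and the ubiquitous calpain gene Capn2 are neighbours on chromosome 1.

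In the Satin antrum, 1 of the 14 probe sets changed against the mean of both control strains. It was 1427797_s_at of Ctse, the gene of the intracellular aspartic protease cathepsin E, which was higher in both Satin arrays than in every control array. Among all 15838 probe sets tested the called share was 1.02%, with 161 called. Calls were made with limma on quantile normalized log2(signal + 32), where the p adjusted by Benjamini-Hochberg over the 15838 probe sets lay under 0.05. The differences of the members had a median of 0.00, and 7 of 14 lay above 0, while the median over all probe sets tested was 0.02. The other 13 probe sets did not pass. Those of Tff1, Tff2, Gkn1 and Gkn2 and the brighter ones of Ctse and Anxa10 lay at the top of the range. Muc5ac, the mucin of the same cells, fell by 4.35 (SE 0.15, limma adjusted p = 4.01e-06).

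The arrays themselves differed in ways that touch these values. Median signals were 58.6 and 74.15 on the Satin arrays and between 38.2 and 49.5 on the control arrays, so that as deposited the median difference of all probe sets was 0.44 on the log2 scale. Differences below are after quantile normalization, relative to the bulk of probe sets, and deposited signals are given beside them. The Gapdh control probe sets of the 5' and 3' end, whose ratio reads RNA integrity, gave 0.526 for BL6 replicate 1 and between 0.988 and 1.18 for the others. Foxq1, whose mutation marks Satin, had normalized values of 10.46 and 10.41 in Satin, 9.88 and 9.38 in Beige, and 10.13 and 10.17 in BL6, and did not pass (0.55, SE 0.16, limma adjusted p = 0.208). A transcript level gives no check of a mutation. In tissue RNA, fewer cells of a type and less RNA per cell cannot be told apart.

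Promoter sequence was at hand for 6 of the 10 genes, and the upstream part is shown for the adjacent gastrokine genes, whose probe sets lay at the top of the range, and for Capn8, the one with a forkhead core match. The sequences are the 250 bases before the annotated start, read 5′ to 3′ on the gene's strand, from RefSeq on GRCm38.p6. Gkn1 lies at chr6:87350916-87351165 (minus strand), Gkn2 at chr6:87373115-87373364 (plus strand) and Capn8 at chr1:182564757-182565006 (plus strand). Capitals mark a TATA box (TATAAA) in Gkn2 and a forkhead core (TGTTTA) in Capn8.
Gkn1: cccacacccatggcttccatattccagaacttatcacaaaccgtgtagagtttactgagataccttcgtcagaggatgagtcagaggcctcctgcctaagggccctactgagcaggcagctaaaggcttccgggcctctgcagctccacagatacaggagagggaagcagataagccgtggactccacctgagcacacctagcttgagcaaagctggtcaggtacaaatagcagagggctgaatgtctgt
Gkn2: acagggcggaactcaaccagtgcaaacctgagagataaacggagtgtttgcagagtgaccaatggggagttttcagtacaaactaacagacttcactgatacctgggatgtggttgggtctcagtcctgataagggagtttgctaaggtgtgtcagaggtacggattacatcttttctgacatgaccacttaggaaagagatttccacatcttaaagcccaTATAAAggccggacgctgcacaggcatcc
Capn8: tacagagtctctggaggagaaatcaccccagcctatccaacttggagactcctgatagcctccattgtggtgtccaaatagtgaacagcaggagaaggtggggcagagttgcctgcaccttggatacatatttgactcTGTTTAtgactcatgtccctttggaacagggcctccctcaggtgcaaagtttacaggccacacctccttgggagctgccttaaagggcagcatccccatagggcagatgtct

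Both motifs were searched on both strands and share no overlapping match here. The forkhead core was found in 1 of the 6 promoters, that of Capn8, from 112 to 107 bases before the start, and 12.0% of all 32851 promoter entries hold it in a window of the same length. The TATA box was found in 3 of the 6, in Gkn2 (29 to 24 bases before the start), Anxa10 (32 to 27) and Muc1 (31 to 26), against 12.4% of all entries. A match is a description of these letters and not of binding.

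Tff1, the trefoil peptide co-secreted with Muc5ac, had signals of 9567.4 and 9532.4 in Satin, 9373.4 and 9244.4 in Beige, and 6935.7 and 10028.4 in BL6. The Satin values lay within the range of the controls, and the lowest and the highest array were both BL6. On the normalized scale the difference from the control mean was 0.10 (95% interval -0.19 to 0.38, limma adjusted p = 0.830). Tff2, the trefoil peptide of mucous neck and antral gland cells, had signals of 8935.4 and 8339.7 in Satin, 8344.4 and 8836.9 in Beige, and 7071.6 and 8912.8 in BL6. The strains overlapped, and the difference was 0.06 (95% interval -0.25 to 0.36, limma adjusted p = 0.913). For both genes the lowest signal was on BL6 replicate 1, the array with the low Gapdh ratio, and the part of RNA integrity in it was not tested. Normalized, Satin differed from BL6 alone by 0.21 (Tff1) and 0.15 (Tff2), and lay above both BL6 arrays (limma adjusted p = 0.629 and 0.763). As deposited, Satin and BL6 overlapped for both genes. After normalization Satin and BL6 did not overlap, in either direction, for 43.3% of all probe sets. Beige differed from BL6 by 0.22 and 0.19 (0.859 and 0.869).

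The gastrokine genes Gkn1 and Gkn2 did not differ between strains past the test. The probe set 1423404_at of Gkn1 had signals of 9629.3 and 9400.6 in Satin, 9123.4 and 9413.3 in Beige, and 9163.6 and 10644.7 in BL6. The second Gkn1 probe set, 1437340_x_at, of a type that may also bind related sequences, had 8856.2 and 7106.5 in Satin, 8351.7 and 7599.2 in Beige, and 9591.4 and 9860.7 in BL6. Gkn2 had 9968.1 and 9543.9 in Satin, 9619.1 and 9340.7 in Beige, and 9578.6 and 10712.8 in BL6. The highest signal of 1423404_at was 1.17 times its lowest, and that of Gkn2 1.15 times. The differences of Satin from the control mean were -0.01 (95% interval -0.30 to 0.28) and -0.12 (-0.46 to 0.22) for Gkn1 and 0.03 (-0.26 to 0.31) for Gkn2, with limma adjusted p = 0.983, 0.829 and 0.960. Only the second Gkn1 probe set had both Satin arrays below both BL6 arrays as deposited, and after normalization it too overlapped.

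**Figure D1:**
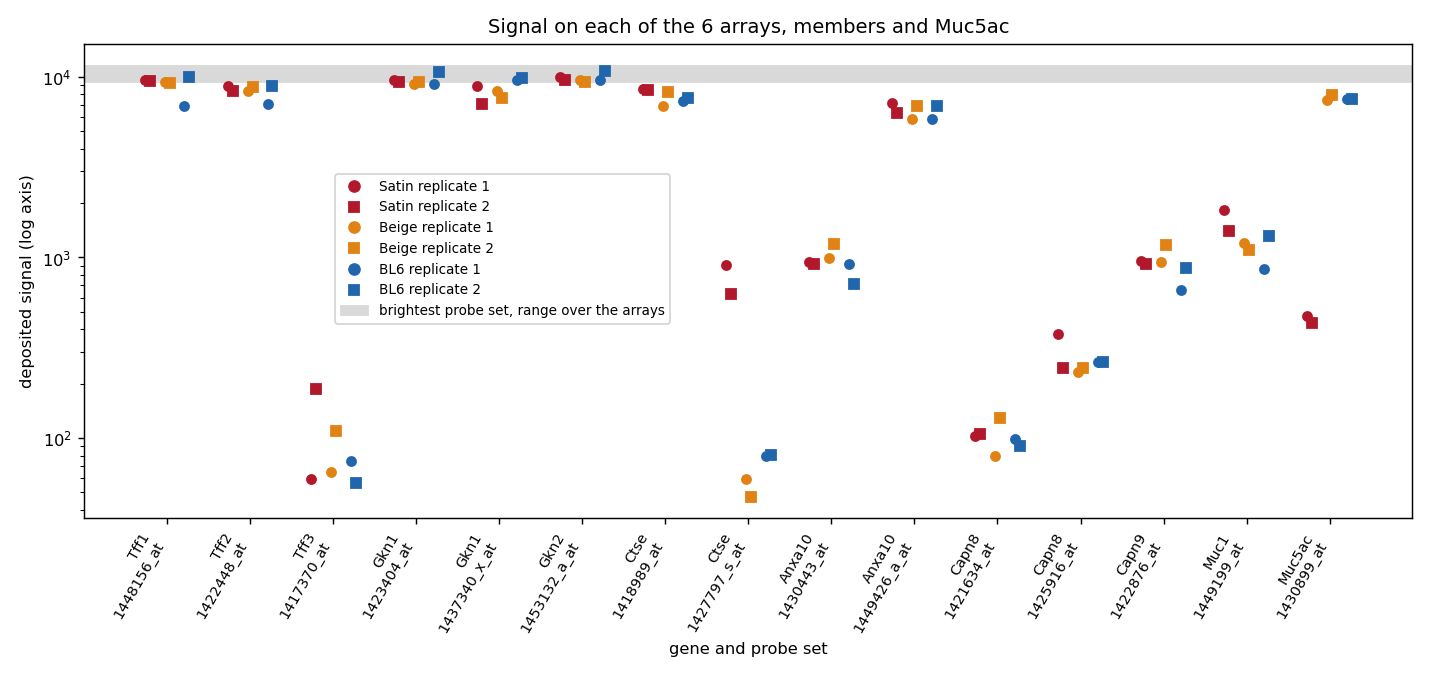
Deposited signal (log axis) of each member probe set and of Muc5ac on the 6 arrays, Satin left, Beige in the middle and BL6 right in each column, with the band of the brightest probe set of the arrays (9413.3 to 11546.5) in grey. Tff1, Tff2, Gkn1, Gkn2 and 1 probe set each of Ctse and Anxa10 sit just under or in the band on every array, while the Satin points of Ctse 1427797_s_at stand above and those of Muc5ac below all control points.

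These signals were set against the top of the range of each array, as a description of where in the range a probe set lies and not of transcript amounts. The 7 probe sets of Tff1, Tff2, Gkn1 (both), Gkn2, Ctse (1418989_at) and Anxa10 (1449426_a_at) ranked between 1 and 56 of all probe sets on every array, and the other 7 ranked between 549 and 12669. Of the 10 brightest probe sets, 5 and 4 were members in Satin, 5 and 4 in Beige, and 3 and 2 in BL6. On BL6 replicate 2 the brightest was the pancreatic enzyme gene Prss2, at 11546.5. Tff1 and Gkn2 had their highest signals on that array, 10028.4 and 10712.8, but ranked 13 and 5. Quantile normalized values follow the rank, and the part of pancreatic RNA in these ranks was not tested. Gkn2 was the brightest of all on Satin replicate 1 and Beige replicate 1, and Gkn1 on Beige replicate 2 and BL6 replicate 1. The brightest signal was only 1.12 to 1.30 times that at rank 10, and 1.43 to 1.84 times that at rank 50. No saturation flag is at hand, so the room above a signal was taken as the ratio of the array's brightest signal to it.

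For Gkn2 that room was 1.00 to 1.08 times, for Gkn1 1423404_at 1.00 to 1.08 times, for Tff1 1.02 to 1.38 times, and for Tff2 1.07 to 1.36 times. A rise by more than such a factor would have passed the brightest signal seen on the array. Quantile normalization gives the brightest probe set of each array the same value, so Gkn2, at rank 1 or 2 on the Satin and Beige arrays, had the same mean of 13.28 in both strains by construction. A level above the top of the range could also fall without a change in signal, and whether the bright members lie there was not tested. Muc5ac, which fell, had signals of 471.8 and 435.0 in Satin, 7485.4 and 7948.7 in Beige, and 7514.3 and 7502.6 in BL6, ranking 7 to 47 on the control arrays. Its control mean of 7613 lay in the same part of the range as that of the bright Ctse probe set, 7526. Of the 42 probe sets with a control mean over 6000, 0 were higher and 1 was lower in Satin by more than 2-fold, and the lower one was Muc5ac. A rise of that size from over 6000 would have passed the brightest Satin signals, 9968.1 and 9782.6, so the count of 0 was fixed. The 42 had a median absolute difference of 0.09, with rises limited in the same way. It was 0.20 for the 891 probe sets with a control mean of 500 to 1000 and 0.23 for the 8916 below 100.

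**Figure D2:**
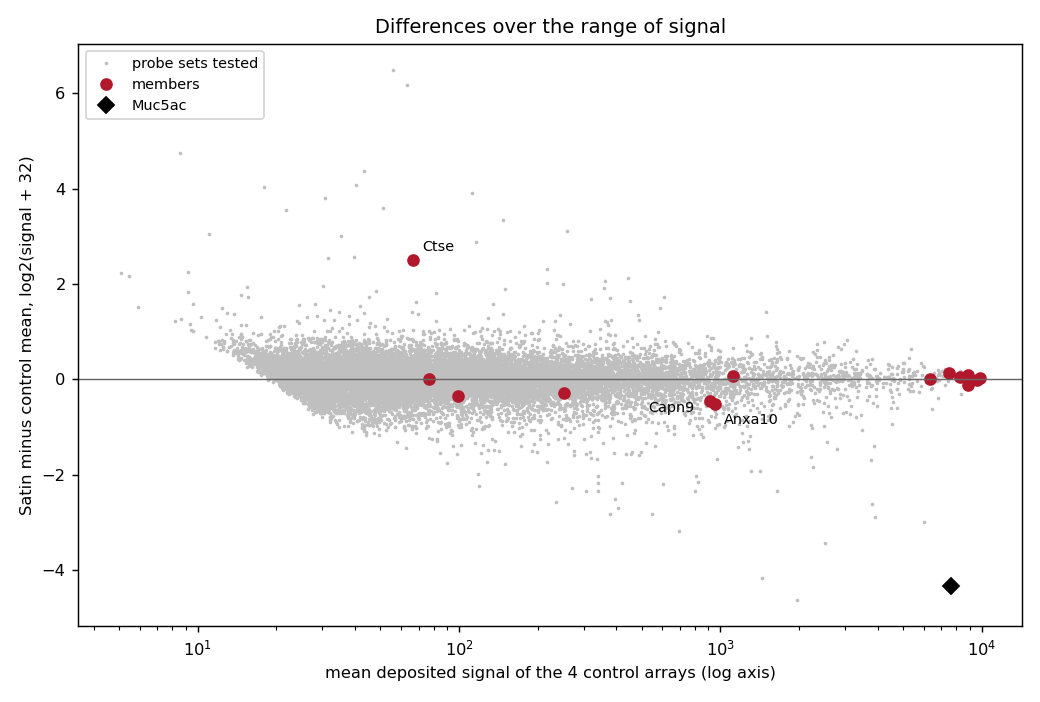
Difference of Satin from the control mean, on the log2(signal + 32) scale, against the mean deposited signal of the 4 control arrays (log axis) for 15838 probe sets, with members in red and Muc5ac as a black diamond. The spread narrows towards the right, where 7 members lie within 0.14 of 0 and Muc5ac lies at -4.35.

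For Ctse, 1 of the probe sets was called and the other was not. The probe set 1427797_s_at had signals of 903.1 and 627.4 in Satin, 59.7 and 47.3 in Beige, and 79.8 and 80.7 in BL6. Both Satin arrays lay far above all control arrays, at 12.2 and 10.7 times their array's median signal, while the Beige arrays lay at 1.21 and 0.963 times and the BL6 arrays at 1.68 and 2.11 times. The mean signal was 11.4 times that of the controls as deposited, where the median difference of all probe sets was 0.44 on the log2 scale. On the normalized scale the rise was 2.50 (SE 0.19, 95% interval 2.07 to 2.93, limma adjusted p = 0.000561), which is 5.66-fold and understates the change because of the added 32. It ranked 16 by size among the 55 called rises (0.347% of all probe sets). Against Beige the rise was 2.78 (SE 0.22, limma adjusted p = 0.00107), and against BL6 it was 2.22 (SE 0.22, limma adjusted p = 0.00330). These comparisons share the Satin arrays. Beige lay below BL6 by 0.56 without overlap, which is so for 32% of all probe sets in either direction, and did not pass (limma adjusted p = 0.859).

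The call of 1427797_s_at was kept in each of the 18 other settings against the control mean and in each of the 19 against Beige, including those without 1 Satin or Beige array, where the lone array is assumed to vary like the other strains. The highest limma adjusted p was 0.0122 against the control mean, without Satin replicate 1, and 0.0460 against Beige, without Beige replicate 2. One of these settings averages both Ctse probe sets, and gave a called rise of 1.32 against the control mean. Against BL6 it was kept in 18 of 19, and with the Gapdh ratio as a covariate the value was 2.10 (limma adjusted p = 0.0508). The bright probe set 1418989_at had signals of 8591.9 and 8419.4 in Satin, 6932.7 and 8191.0 in Beige, and 7367.1 and 7612.9 in BL6. As deposited both Satin arrays lay above all controls, by a ratio of means of 1.13. That difference was 0.18 on the log2 scale, beside the median of 0.44 of all probe sets. The probe set had room of 1.15 to 1.52 times. On the normalized scale it differed by 0.14 (95% interval -0.20 to 0.48, limma adjusted p = 0.792), and the arrays overlapped. With 1 probe set a gene, chosen by the highest mean, only this one stands for Ctse, and 0 of the 10 member genes are called. Over the 14 probe sets, 3 had an unadjusted p under 0.05 (1427797_s_at, 1430443_at of Anxa10 and 1422876_at of Capn9), beside 11.8% of all.

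The platform annotation gives both probe sets to Ctse alone. The suffix s of the dimmer one marks probes that fit more than 1 transcript, which may be of different genes. The sources used here do not say which transcripts it reads. Of the 27 genes with a probe set over 6000 in the control mean, 5 also had a dimmer one under 2000 that passed the filter (6 probe sets). That of Ctse was the 1 of 6 that was called. The control means of the 6 ran from 36 to 1400, with that of Ctse at 67.

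Cathepsin E is also made by cells of the immune system. Of 10 immune marker genes tested 2 rose in Satin, Igha, which encodes the constant part of IgA (3.34, SE 0.34, limma adjusted p = 0.00189), and its joining chain gene Jchain (2.00, SE 0.35, 0.0377). The mean normalized level of the list was 7.68 and 8.07 in Satin, 7.25 and 7.03 in Beige, and 7.01 and 7.40 in BL6, with both Satin arrays above all controls. The 8 genes not called had a mean of 7.01 and 7.49 in Satin, 7.30 and 7.08 in Beige, and 6.83 and 6.96 in BL6, so that without Igha and Jchain Satin replicate 1 lay below both Beige arrays. Of these 8, 5 lay above 0 and 3 below, with the leukocyte marker Ptprc at 0.68 (SE 0.27, limma adjusted p = 0.371), the lysozyme gene Lyz2 at -0.20, the integrin gene Itgam at -0.36 and the T cell gene Cd3e at -0.08. The part of these cells in the Ctse result was not tested. The genes with the most similar pattern were Sdc4, a syndecan, S100a8, a neutrophil protein gene, and Rab3b, a secretory granule GTPase gene. Their mean-centred values differed from those of 1427797_s_at by a root mean square of 0.34, 0.45 and 0.48 over the 6 arrays. S100a8 had normalized values of 7.11 and 7.36 in Satin, 5.24 and 5.42 in Beige, and 5.15 and 5.83 in BL6. The control values of S100a8 thus lay near or under the filter on dim probe sets, and a shared cell source was not tested.

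**Figure D3:**
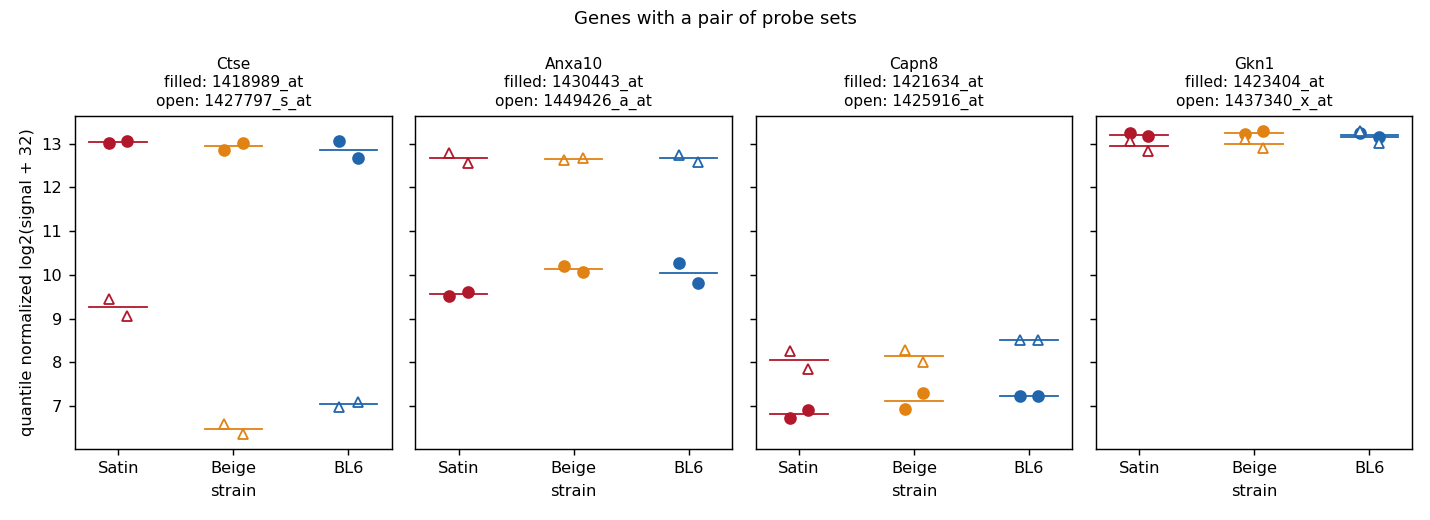
Quantile normalized log2(signal + 32) on each array for the 4 genes with a pair of probe sets, Satin left of Beige and BL6, with short lines at the mean of the 2 arrays of a strain. The open triangles of Ctse stand at 9.26 in Satin, 6.48 in Beige and 7.04 in BL6 while its filled circles stay near 13, and the probe sets of Anxa10 differ in whether Satin lies lower.

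Anxa10, the gene of an annexin that is abundant in the stomach, also had a bright and a dimmer probe set. The bright one, 1449426_a_at, had signals of 7118.7 and 6309.7 in Satin, 5838.2 and 6860.7 in Beige, and 5852.8 and 6921.2 in BL6, with a difference of 0.01 (95% interval -0.30 to 0.32, limma adjusted p = 0.989). The dimmer one, 1430443_at, had 947.6 and 921.2 in Satin, 987.5 and 1183.5 in Beige, and 922.7 and 714.1 in BL6, with at least 7.95 times of room. After normalization both Satin arrays lay below all controls, at 9.52 and 9.61 in Satin against 9.82 to 10.27. The difference was -0.53 (SE 0.16, unadjusted p = 0.00913 with limma, adjusted p = 0.219). Groups that did not overlap were common, at 22.7% of all probe sets in either direction and 4 of the 14 members. As deposited this probe set overlapped, with a difference of 0.00, beside the median of 0.44 of all probe sets. Without BL6 replicate 2, normalized, it was called (-0.64, limma adjusted p = 0.0378).

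Capn9 and Capn8 encode calcium-dependent cysteine proteases that in the mouse stomach are made in mucous cells, where they act together. Capn9 had signals of 958.4 and 914.8 in Satin, 942.8 and 1172.9 in Beige, and 663.7 and 870.7 in BL6. Satin lay between the controls as deposited and below all of them after normalization, at 9.53 and 9.60 against 9.78 to 10.14. Its difference was -0.45 (SE 0.14, unadjusted p = 0.0117 with limma, adjusted p = 0.247), and 0.06 as deposited. Capn8 was read by a pair of probe sets far from the top of the range. The probe set 1425916_at had 377.6 and 244.7 in Satin, 232.3 and 243.0 in Beige, and 264.9 and 264.8 in BL6, and 1421634_at had 103.0 and 105.5 in Satin, 79.9 and 128.5 in Beige, and 98.9 and 90.4 in BL6. Satin replicate 1 was the highest array for the first, and the strains overlapped in both as deposited. After normalization both Satin arrays of 1421634_at lay below all controls, at 6.72 and 6.92 against 6.94 to 7.29, while those of 1425916_at overlapped. Their differences were -0.28 (95% interval -0.69 to 0.13, limma adjusted p = 0.621) and -0.36 (-0.81 to 0.10, 0.565), turning to 0.25 and 0.06 as deposited.

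Muc1, the gene of a membrane-bound mucin of the apical surface, had signals of 1825.4 and 1397.7 in Satin, 1198.5 and 1103.2 in Beige, and 865.2 and 1318.2 in BL6. Both Satin arrays lay above all controls as deposited, by a ratio of means of 1.44 and a difference of 0.51, beside the median of 0.44 of all probe sets. After normalization the strains overlapped, with a difference of 0.06 (95% interval -0.37 to 0.49, limma adjusted p = 0.939). Its room of 5.46 times or more left space for a rise.

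Tff3, the trefoil peptide gene of goblet cells, was the member that differed most between arrays of 1 strain after normalization. It had signals of 59.2 and 186.7 in Satin, 64.8 and 109.9 in Beige, and 75.1 and 56.4 in BL6. Satin held the highest array and, after normalization, the lowest, at 7.52 and 6.20. The difference from the control mean was 0.00 with a wide interval of -0.79 to 0.78 (limma adjusted p = 0.999). Goblet cell genes, whose cells make trefoil factor 3, also differed between the Satin arrays. The mean level of the 7 tested goblet genes was 7.20 and 9.12 in Satin, 8.79 and 8.45 in Beige, and 8.45 and 8.79 in BL6, with 0 of 7 called. Not all of the 7 were lower on Satin replicate 1 than on Satin replicate 2. Zg16, a goblet granule lectin, had 6.55 and 11.46 in Satin, 11.41 and 11.28 in Beige, and 11.10 and 12.73 in BL6. Its value on Satin replicate 2 thus lay within the control range, unlike that of Tff3. The 9 tested pancreatic exocrine genes had 6.40 and 11.95 in Satin, 6.97 and 9.84 in Beige, and 6.47 and 12.92 in BL6, so that replicate 2 of each strain was high. Their part in the Tff3 values was not tested. The genes closest in pattern to Tff3 were Fam13c, the claudin gene Cldn2 and Serinc1, with root mean square differences of 0.10, 0.11 and 0.15 over the 6 arrays.

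**Figure D4:**
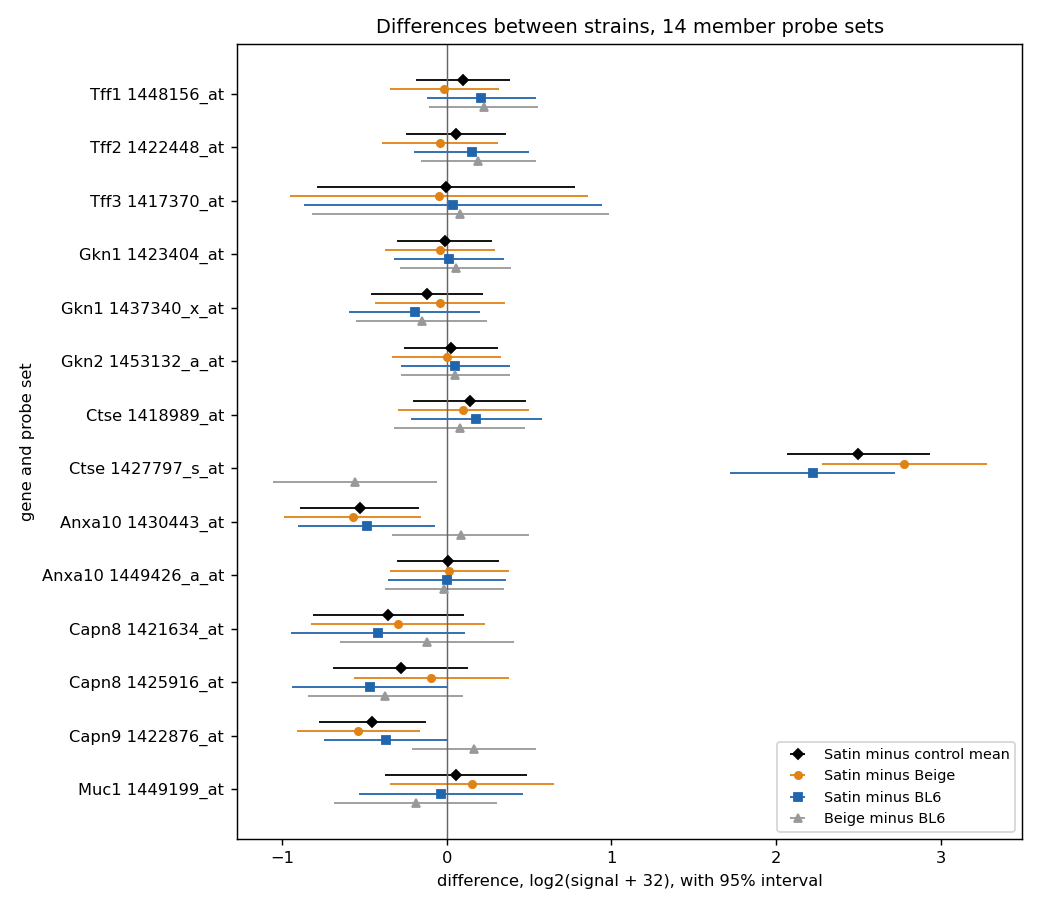
Differences between strains on the log2(signal + 32) scale, with 95% intervals from limma, for the 14 member probe sets. Only the Ctse probe set 1427797_s_at lies far from 0 in the 3 comparisons of Satin, and the interval of Tff3 is the widest of the 14 against the control mean.

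Taken singly, the control strains gave the same count. Satin against Beige had 1 of 14 member probe sets called, beside 0.657% of all probe sets, and Satin against BL6 had 1 of 14, beside 0.537%, both times 1427797_s_at. Between Beige and BL6, 0 of 14 members and 0 of 15838 probe sets (0%) were called with limma, while 820 probe sets (5.18%) and 1 member, again 1427797_s_at, had an unadjusted p under 0.05. The 4 comparisons share arrays and are not independent of one another.

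The wider pit cell programme was followed in a list of further genes, read at 1 probe set a gene. The list holds Muc5ac and was chosen with earlier results of these data known. Of 18 tested, 0 rose, 4 fell and 14 did not pass, with a median of -0.16, beside 33 risen and 77 fallen of 9395 genes, whose median was -0.00. Besides Muc5ac, Adh7, a retinol and ethanol dehydrogenase of gastric epithelium, fell by 2.04 (SE 0.20, limma adjusted p = 0.00157), with values of 8.11 and 7.52 in Satin below all 4 control arrays. Krt20, a keratin of differentiated surface cells, fell by 1.64 (SE 0.21, limma adjusted p = 0.00843), with 9.37 and 9.84 in Satin against 10.84 to 11.54. Sytl2, a Rab27 effector of granule exocytosis, fell by 0.74 (SE 0.14, limma adjusted p = 0.0447), with both Satin arrays below the lowest control array at 9.67. The 10 members, read in the same way at their brightest probe sets, had 0 called and a median of 0.02.

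Among relatives of the members, Anxa13, Pga5 and Muc5ac were called, beside 33 risen and 77 fallen of all 9395 genes. Of 9 further annexins 1 fell, Anxa13, an annexin of intestinal and renal epithelium (-1.37, SE 0.20, limma adjusted p = 0.0152), at 5.92 and 6.11 in Satin against 7.07 to 7.77, close to the filter at 5.74. Of 10 further calpain genes and calpastatin 0 were called, and Capn2, the neighbour of Capn8, had -0.73 (SE 0.22) and Cast, the calpain inhibitor, -0.48 (SE 0.18), with limma adjusted p = 0.221 and 0.335. Of 6 further aspartic proteases 1 rose, Pga5, a pepsinogen (3.12, SE 0.23, limma adjusted p = 0.000439), with 11.72 and 11.16 in Satin against 8.08 to 8.84. Of 4 further BRICHOS genes 0 were called, with Itm2b at -0.11 and Tnmd at -0.18 (limma adjusted p = 0.821 and 0.891). Of 6 further mucin genes Muc5ac alone fell, and of 9 partner and receptor genes reported for trefoil factors and gastrokines Muc5ac alone was called.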

How the data were processed

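The authors deposited an intensity on a linear scale for each probe set and array, measured as biotinylated cRNA made from Trizol-extracted RNA, per the labels' protocols. The sources used here state neither the summarisation and scaling nor detection calls. The column medians differ, so the columns of the authors' table do not share 1 distribution. Of the sample columns 0 were left unused, and the 15 pairs of arrays shared 35 to 88 equal values, so no array was entered under more than 1 sample.

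The 64 control probe sets were left out. Each signal was taken as log2(signal + 32), the arrays were quantile normalized, and probe sets with a mean in the lowest 30% (below 5.74) were not tested. In all 20380 probe sets carried 1 gene symbol, 691 several and 1555 none listed, and 20351 were found by gene ID in the RefSeq table of GRCm38.p6 (0 symbols changed). Of the promoter table, 6 of the 10 members were matched by symbol. Two-sided tests came from limma 3.58.1 (lmFit, then eBayes with an intensity trend; R 4.3.3), in 1 fit of 6 arrays with strain as factor, with 3 residual and 8.95 moderated degrees of freedom. The fit was tested on simulated data. The number of arrays limits the precision.

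The members and lists were chosen with earlier results of these data known. Genes beside the members were named by rule: Muc5ac and Foxq1, up to 4 called genes of each pathway list or, in a list without calls, the pair of smallest p, up to 2 called genes of each cell type list or, without calls, the 2 brightest, and the 3 nearest patterns of members that ranged over more than 1. Ptprc, Lyz2, Itgam and Cd3e were named, and bright and dimmer probe sets were compared, after the values were seen. Other settings changed normalization, pseudocount, filter, variance model, probe sets per gene, arrays, a Gapdh covariate, a replicate block and single arrays.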

Additional observations from a re-analysis of the deposited data

How the results depend on the processing

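The 1 called member, Ctse 1427797_s_at, was called against the control mean in all 18 other settings, which did not include 1 probe set a gene. With 1 probe set a gene the member count was 0 against the control mean, Beige and BL6, because the brighter probe set stood for Ctse, and with the Gapdh covariate it was 0 against BL6. Leaving out single arrays gave 1 to 2 called members against the control mean, 2 without BL6 replicate 2.

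Over all probe sets, the 161 calls against the control mean became 2016 as deposited (1946 higher, 70 lower, against 55 and 106), 1297 with hybridization control scaling (1225 higher, 72 lower), 101 without filter, 48 without trend, 92 with gene means, 96 with the Gapdh covariate, and 48 (without Beige replicate 2) to 407 (without BL6 replicate 2). Against Beige, 104 became 198 as deposited, 56 without filter, 31 without trend, 37 with gene means, 175 with only the arrays compared, and 10 to 174 without single arrays. Against BL6, 85 became 2679 as deposited, 2391 with hybridization controls, 48 without filter, 24 without trend, 135 with robust eBayes, 22 with gene means, 35 with only the arrays compared, 45 with the Gapdh covariate, and 33 to 390 without single arrays. Beige against BL6 gave 1 as deposited, 1 with hybridization controls, 12 with the Gapdh covariate, and 0 to 11 without single arrays. The median of all probe sets was 0.44 as deposited, 0.10 with median centring and 0.38 with hybridization controls.

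Directions of members not called, most of them near 0, turned under scalings that move probe sets together by the medians above, and under other settings. Median centring moves all probe sets of an array by the same amount. The 7 bright probe sets lay below the median of 0.44 as deposited, and lay below 0 after centring. As deposited, the differences were Tff3 0.40, Capn8 0.065 (1421634_at) and 0.25 (1425916_at), Capn9 0.063 and Gkn2 -0.0067. With hybridization controls they were Tff3 0.35, Capn8 0.0095 and 0.18 in the same order, Tff2 -0.0097 and Gkn2 -0.080. With median centring they were Tff3 0.072, bright Ctse -0.15, Tff2 -0.27, Tff1 -0.22, bright Anxa10 -0.25 and Gkn2 -0.34. With the Gapdh covariate they were Tff3 0.10, Gkn1 0.033 (1423404_at) and 0.012 (1437340_x_at), and Muc1 -0.17. Tff3 was 0.031 at a pseudocount of 100, and Anxa10 -0.26 as a gene mean. Without single arrays Tff3 ranged from -0.66 to 0.66, Gkn1 1423404_at from -0.040 to 0.016, Muc1 from -0.11 to 0.23, and bright Anxa10 from -0.11 to 0.13.

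The labels number the arrays 1 and 2 in each strain. Deviations of same-numbered arrays correlated at 0.21 (Satin and Beige), 0.31 (Satin and BL6) and 0.14 (Beige and BL6), but 2 numbers do not establish a pairing. With the replicate number as a block, 143, 81, 65 and 0 probe sets were called in the comparisons with the control mean, Beige, BL6 and between controls, with 1, 1, 1 and 0 members. Ctse 1427797_s_at kept 2.50 (limma adjusted p = 0.00161).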

Other observations

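Lists of other antral and neighbouring cell types gave the following against the control mean, read at 1 probe set a gene with limma. Of all 9395 genes read in this way, 33 rose and 77 fell. Bpifb1, a secreted protein gene of mucous gland cells, was the 1 of 8 gland genes that changed, and rose by 4.37 (SE 0.47, adjusted p = 0.00288), with values of 11.71 and 9.64 in Satin, 6.86 and 6.26 in Beige, and at most 6.09 in BL6. Pga5 was the 1 of 6 chief cell genes called. Of 10 parietal cell genes 0 were called, while all 10 lay above 0 with a median of 0.47. The mean level of these genes was 9.79 and 9.20 in Satin, 9.18 and 9.04 in Beige, and 8.68 and 9.18 in BL6. Their brightest were Car2, a carbonic anhydrase gene, at 0.13, and the proton pump subunit gene Atp4b at 0.34 (adjusted p = 0.818 and 0.575). Of 11 enteroendocrine genes 3 fell, among them the granin gene Chgb (-2.35, SE 0.34, adjusted p = 0.0146) and the gastrin gene Gast (-1.40, SE 0.23, 0.0257). Of 9 absorptive cell genes 1 fell, the fatty acid binding protein gene Fabp2 (-4.62, SE 0.20). The absorptive list had 3 of 9 above 0 and a median of -0.31. Of 11 smooth muscle genes 3 fell, among them desmin, Des (-1.53, SE 0.20, 0.00981) and the tropomyosin gene Tpm2 (-0.96, SE 0.15, 0.0196). All 11 lay below 0, with a median of -0.89. Of 7 squamous genes 0 were called, with Sprr1a at -0.86 and Lor at -0.14 (0.117 and 0.857). Of 9 pancreatic genes 0 were called, with the brightest, Cela1 and Prss2, at -0.60 and -0.26 (0.773 and 0.98). The pancreatic list as a whole had 6 of 9 above 0 and a median of 0.30. The goblet cell gene Clca1 had 8.69 and 11.58 in Satin, and between 11.47 and 11.71 in the controls. The part of these cell types in the values of the members was not tested.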
